A study of Mus musculus with 34 samples.

Results

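The 9 genes described here (Avpr1a, Ednrb, Rtp1, Sphkap, Fgf14, Map2, Cldn9, Ecm2 and Fndc9) were chosen by their measured RNA levels, which were higher in Rfx2 knockout cells and lower in Rfx3 knockout cells than in wild-type cells of the same line. They are 9 of the 21647 genes in the deposited count table, and all 9 had a row there. Because the levels in these 2 lines chose the genes, their values in the Rfx2 and Rfx3 lines are given as a description. Where calls or adjusted p-values of the 9 genes in these lines appear, the choice favours them, and they are not read as tests. The Rfx1 line took no part in the choice.

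The data are 34 bulk RNA sequencing libraries of mouse ependymal cells, which line the brain ventricles and carry many motile cilia. The cells were dissected from the lateral ventricle wall of embryos at day E18.5, labelled as strain C57BL/6, and grown outside the animal; the sample titles add the word OF1 without saying what it stands for. All groups, controls included, were differentiated by taking serum away for 4 days. The Rfx1 line held 4 Rfx1-/- and 4 wild-type (+/+) sibling libraries, the Rfx2 line 6 Rfx2-/- and 8 wild-type, and the Rfx3 line 6 Rfx3-/- and 6 wild-type. No label says whether libraries came from separate embryos, so each p-value measures the spread between libraries, which may be technical. The labels describe whole knockouts and name neither a Cre driver nor the deleted exons. The cultures hold other cell types as well, and in bulk RNA fewer cells of a type and less RNA per cell cannot be told apart.

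Rfx1, Rfx2 and Rfx3 encode transcription factors of the regulatory factor X family. These proteins bind the X-box, a palindrome whose arms can read GTTGCC or GTTACC. They are known for switching on genes of cilia, in ependymal cells among others. The 9 genes are not classical ciliary genes. Avpr1a encodes the V1a receptor for the peptide vasopressin, and Ednrb the B-type endothelin receptor, both G-protein-coupled receptors. Rtp1 encodes a membrane protein that helps odorant receptors reach the cell surface. Inside the cell, Sphkap encodes an anchor that holds protein kinase A, Fgf14 a non-secreted relative of fibroblast growth factors that binds voltage-gated sodium channels, and Map2 a microtubule-associated protein of neuronal dendrites. Cldn9 encodes a claudin of tight junctions, Ecm2 a leucine-rich protein of the extracellular matrix, and Fndc9 a protein with a fibronectin type III domain.

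RefSeq promoters (GRCm38.p6, from 250 bases before to 50 bases after the annotated start) were found for 7 of the 9 genes, but not for Rtp1 and Cldn9. The arms GTTGCC and GTTACC were searched in these windows on both strands, together with the palindrome made of an arm and its inverted partner, whose matches overlap those of the arms. An arm was found in 1 of the 7 windows, that of Fndc9, where GTTGCC begins 162 bases before the start (at -162). The palindrome was in none of the 7. Other forms of the arm were not searched. Among all 32851 promoters of the table, 18.6% hold at least one arm (GTTGCC in 12.5% and GTTACC in 7.21%) and 0.408% the palindrome. In the sequences below, capitals mark the arm, and a sequence without capitals holds neither GTTGCC nor GTTACC on either strand. The 250 bases before the start are printed for Fndc9, which holds the arm. They are also printed for Avpr1a and Sphkap, which had the largest differences in the Rfx3 line. They lie at chr11:46235307-46235556 (plus strand), chr10:122448249-122448498 (plus strand) and chr1:83408201-83408450 (minus strand), and read 5′ to 3′ along the gene:
Fndc9: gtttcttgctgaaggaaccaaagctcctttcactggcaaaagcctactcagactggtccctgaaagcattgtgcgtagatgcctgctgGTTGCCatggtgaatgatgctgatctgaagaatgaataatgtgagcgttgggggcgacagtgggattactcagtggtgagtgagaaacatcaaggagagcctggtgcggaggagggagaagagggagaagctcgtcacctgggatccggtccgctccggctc
Avpr1a: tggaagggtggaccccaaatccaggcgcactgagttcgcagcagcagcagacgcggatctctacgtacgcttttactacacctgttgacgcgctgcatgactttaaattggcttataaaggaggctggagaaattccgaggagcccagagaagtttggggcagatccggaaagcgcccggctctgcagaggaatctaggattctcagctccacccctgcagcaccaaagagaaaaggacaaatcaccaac
Sphkap: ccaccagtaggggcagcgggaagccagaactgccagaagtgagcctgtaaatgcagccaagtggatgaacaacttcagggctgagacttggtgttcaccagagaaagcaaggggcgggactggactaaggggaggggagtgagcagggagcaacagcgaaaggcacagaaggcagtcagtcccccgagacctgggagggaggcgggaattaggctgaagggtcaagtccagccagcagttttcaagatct
A match in these letters is a description of the window and says nothing about binding. The 50 bases after the start were found in an annotated GENCODE M21 transcript for Avpr1a and Sphkap, but in none for Fndc9 and Ednrb. The window given for Fgf14 lies within the gene, at the start of a shorter form.

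Library depth was between 18.2 and 53.4 M counted reads. RNA of each targeted gene was lower in its own knockout in every library. Rfx1 was at 25.2 ± 5.01 against 66.6 ± 10.6 CPM (reads per 1000000 counted reads, SD, n = 4 and 4), Rfx2 at 49.3 ± 4.33 against 106 ± 14.6 (n = 6 and 8) and Rfx3 at 39.8 ± 9.16 against 174 ± 17.3 (n = 6 and 6). In the Rfx3 knockout the RNA of the other two factors also fell, Rfx2 by 0.56 on the log2 scale (SE 0.12, edgeR adjusted p = 0.00861) and Rfx1 by 0.45 (SE 0.11, edgeR adjusted p = 0.0111). In the Rfx2 knockout, by contrast, Rfx3 stood at 189 ± 15.1 CPM against 193 ± 25.5 (SD, n = 6 and 8), a log2 difference of -0.06 (95% interval -0.25 to 0.13, edgeR adjusted p = 0.652). In the Rfx1 line Rfx3 was at 181 ± 20 CPM in the knockout and 150 ± 8.35 in wild type (SD, n = 4 and 4). Every knockout library lay above every wild type, but the log2 difference of 0.27 (SE 0.08) was not called (edgeR adjusted p = 0.9998). Rfx2 was at 138 against 123 CPM there, also not called. Of the 10 markers of multiciliated ependymal cells, all 10 passed the test as lower in the Rfx2 line and 5 as lower in the Rfx3 line, or 3 without knockout library 4, 5 or 6 or wild-type library 1, 2, 3 or 6 of that line.

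Levels of the 9 genes are given in CPM, scaled by edgeR's TMM factors over all libraries; between genes they are compared only per kilobase of exon. On that scale Ednrb (49.7 CPM per kilobase, mean of 34 libraries) and Map2 (35.5) stood highest, followed by Ecm2 (8.74) and Avpr1a (3.85). Sphkap was lowest at 0.39 CPM per kilobase. Log2 differences below come from edgeR, as knockout minus wild type of the same line, with their standard error (SE).

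**Figure D1:**
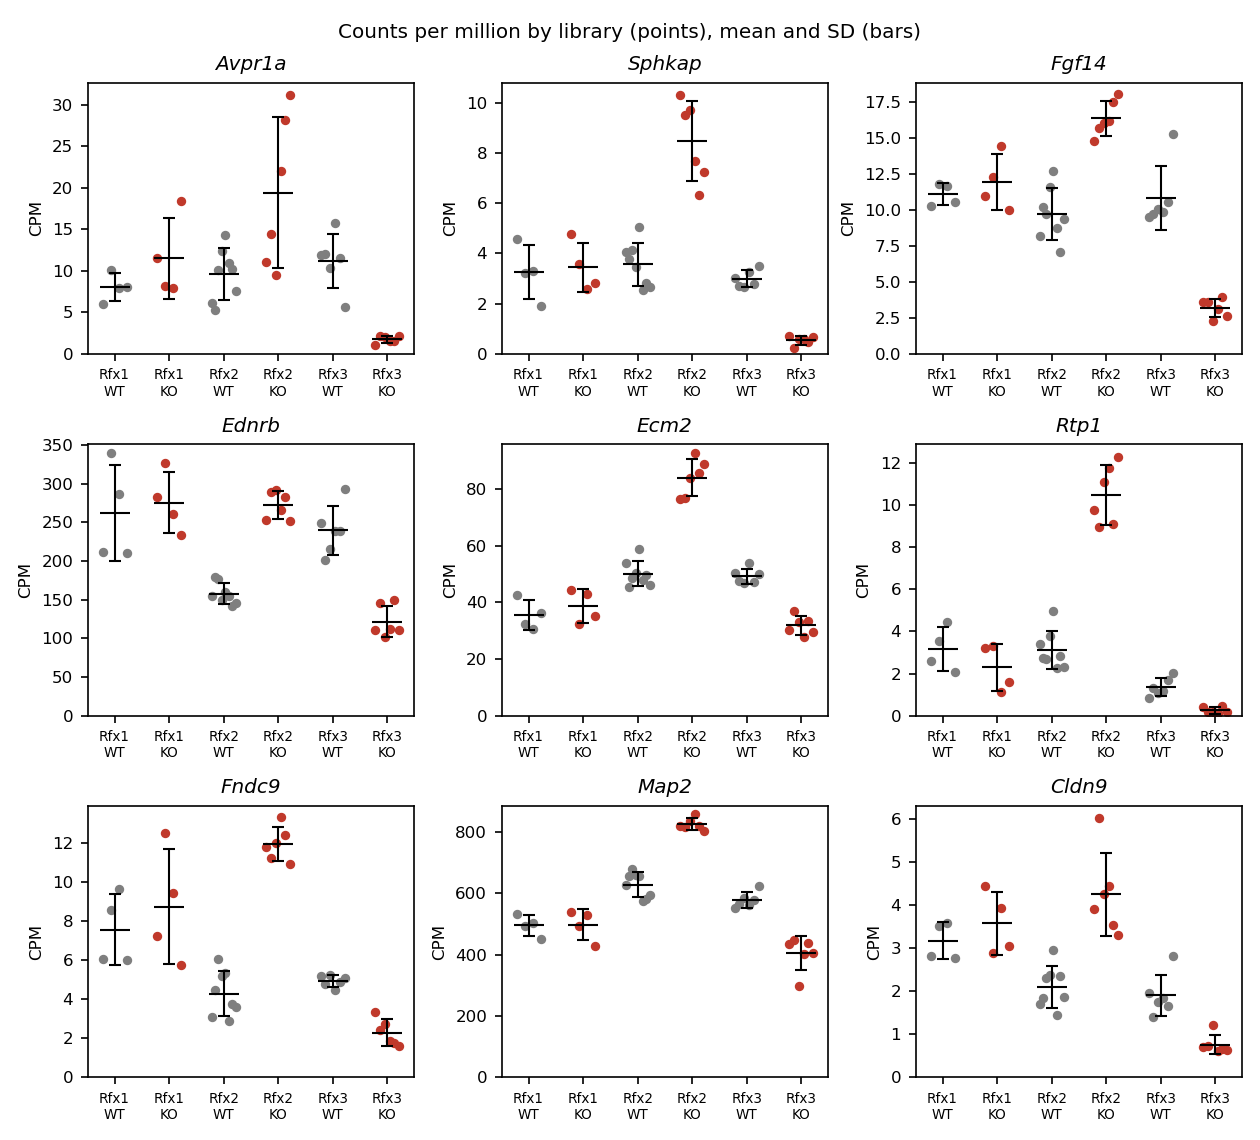
CPM of each gene (y axis, linear from 0) in the 6 groups (x axis). Each point is a library, grey for wild type and red for knockout, and the bars give mean and SD. The Rfx3 knockout has the lowest mean of the 6 groups for all 9 genes, and the Rfx2 knockout the highest for 8 of them, with Ednrb as the exception.

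Both receptors were higher in the Rfx2 knockout and lower in the Rfx3 knockout. Avpr1a (chromosome 10, 122448499-122453452, GRCm38 in GENCODE M21, as for all positions here) ranged from 9.56 to 31.2 CPM in the 6 Rfx2 knockout libraries (median 18.3) and from 5.32 to 14.3 in the 8 wild types (median 10.2). Only 4 of the 6 knockout libraries lay above every wild type. The means were 19.4 ± 9.09 against 9.62 ± 3.1 CPM (SD), a log2 difference of 0.99 (SE 0.29). Rfx3 knockout libraries held 1.07 to 2.15 CPM (median 1.83) and their wild types 5.68 to 15.8 (median 11.7). Every knockout library was below every wild type, and the means of 1.76 ± 0.429 and 11.2 ± 3.27 CPM differ by 6.47-fold (log2 difference -2.69, SE 0.24), the largest of the 9 genes in that line.

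Ednrb (chromosome 14, 103814625-103844402) ran from 251 to 292 CPM in Rfx2 knockout libraries (median 274) and from 142 to 179 in their wild types (median 155), with no overlap. Its log2 difference was 0.76 (SE 0.06). Rfx3 knockout libraries held 101 to 149 CPM (median 112) and wild types 201 to 293 (median 239), a log2 difference of -0.99 (SE 0.12). The wild types of the Rfx2 line were themselves low for this gene. The Rfx2 knockout values fell within the span of the Rfx1 and Rfx3 wild types, which reached from 201 to 339 CPM.

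Rtp1 (chromosome 16, 23429133-23433960), the receptor transporter, showed the largest rise in the Rfx2 line. Its knockout libraries held 8.97 to 12.3 CPM (median 10.5) against 2.24 to 4.98 in wild type (median 2.77), a 3.32-fold difference (log2 1.73, SE 0.16). The Rfx3 line had 0.106 to 0.466 CPM in the knockout (median 0.164) against 0.845 to 2.01 in wild type (median 1.25), with a log2 difference of -2.42 (SE 0.36). The knockout values there rest on 4 to 20 reads per library, which limits their precision. Wild types also differed between lines, and those of the Rfx3 line all lay below those of the Rfx2 line.

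The 3 genes of intracellular signalling, channel binding and cytoskeleton moved by very different amounts. Sphkap (chromosome 1, 83254139-83408200) held 6.33 to 10.3 CPM in Rfx2 knockout libraries (median 8.58) against 2.53 to 5.05 in wild type (median 3.62), a log2 difference of 1.23 (SE 0.16). Rfx3 knockout libraries held 0.215 to 0.706 CPM (median 0.587) against 2.66 to 3.49 (median 2.9), 5.5-fold lower (log2 difference -2.46, SE 0.22), from 5 to 27 reads per knockout library. Neither pair of groups overlapped.

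Fgf14 (chromosome 14, 123977907-124677127) held 14.8 to 18.1 CPM in Rfx2 knockout libraries (median 16.1) against 7.12 to 12.7 in wild type (median 9.59), a log2 difference of 0.73 (SE 0.11). Rfx3 knockout libraries were at 2.31 to 3.97 CPM (median 3.35) against 9.54 to 15.3 (median 9.99), a log2 difference of -1.77 (SE 0.16). The fall was larger in size than the rise on the log2 scale, as it was for 7 of the 9 genes, all but Ecm2 and Fndc9; this difference in size was not tested.

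Map2 (chromosome 1, 66175273-66442583) showed the smallest differences of the 9, though its Rfx2 knockout libraries lay close together. The Rfx2 knockout held 826 ± 18.7 CPM (SD, n = 6; lowest 804, median 821, highest 858) against 629 ± 39.9 in wild type (n = 8; lowest 575, median 641, highest 679). The log2 difference was 0.37 (SE 0.04). The Rfx3 knockout had 299 to 447 CPM (median 420) against 552 to 624 (median 573), a log2 difference of -0.53 (SE 0.09). Exons of Fgf14 and Map2 overlap those of antisense genes by 220 and 124 bases; neither antisense gene has a row in the count table, and whether counting used strand is not given in the sources used here.

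Of the genes for the junction and the matrix, Cldn9 (chromosome 17, 23682584-23684026, a single exon) held 3.3 to 6.02 CPM in Rfx2 knockout libraries (median 4.07) against 1.44 to 2.96 in wild type (median 2.08), a log2 difference of 0.99 (SE 0.17). The Rfx3 knockout had 0.612 to 1.21 CPM (median 0.679) against 1.4 to 2.8 (median 1.78), a log2 difference of -1.35 (SE 0.22). A close relative, Cldn6, was at or below 0.103 CPM in every library.

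Ecm2 (chromosome 13, 49504810-49532789) held 76.3 to 92.6 CPM in Rfx2 knockout libraries (median 84.6) against 45.5 to 58.7 in wild type (median 49.1), a log2 difference of 0.72 (SE 0.06). The Rfx3 knockout had 27.9 to 37 CPM (median 31.6) against 46.7 to 53.7 (median 48.8), a log2 difference of -0.64 (SE 0.07). For Fndc9 (chromosome 11, 46235531-46239872) the Rfx2 knockout libraries held 10.9 to 13.3 CPM (median 11.9) against 2.9 to 6.03 in wild type (median 4.09), a log2 difference of 1.46 (SE 0.15). The Rfx3 line gave 1.61 to 3.35 CPM (median 2.12) against 4.44 to 5.21 (median 4.98), a log2 difference of -1.13 (SE 0.18). Ecm2 lies within Cenpp and Fndc9 within Cyfip2, on the opposite strand and with no shared exon. Neither host passed the test in any line: Cenpp differed by -0.13, -0.38 and 0.00 and Cyfip2 by -0.05, 0.14 and 0.07 on the log2 scale in the Rfx1, Rfx2 and Rfx3 lines.

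By edgeR's quasi-likelihood test with an adjusted p below 0.05, all 9 genes were called higher in the Rfx2 line, where 13.9% of 14305 tested genes were called higher and 18.4% lower. All 9 were called lower in the Rfx3 line, where 12.9% of 14340 tested genes were called lower and 10.6% higher. These counts follow from the choice of the genes. In the Rfx2 line 8 of the 9, all but Avpr1a, had every knockout library above every wild type (3.94% of tested genes), and in the Rfx3 line all 9 had every knockout below every wild type (9.16%). Set against the 18 wild-type libraries of all 3 lines, the Rfx2 knockout libraries lay above every one for 5 genes (Sphkap, Ecm2, Rtp1, Fndc9 and Map2; 2.78% of tested genes). The Rfx3 knockout libraries lay below every one for 6 (Avpr1a, Sphkap, Fgf14, Rtp1, Map2 and Cldn9), against 1.69% of tested genes. The choice of the 9 genes favours these separations too, and nothing is read from them. The call of Avpr1a in the Rfx2 line was lost with replicates 1 to 4 only (log2 difference 0.72, edgeR adjusted p = 0.165). In the Rfx3 line the calls of Fndc9, Map2 and Cldn9 were lost in the same way (edgeR adjusted p = 0.0561, 0.0759 and 0.0652), each with its direction kept.

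Of the 14086 genes tested in both lines, 38 were called higher in the Rfx2 and lower in the Rfx3 line, and 18 the other way round. The 38 are few beside the 1988 genes called higher in the Rfx2 line and the 1857 called lower in the Rfx3 line. The 9 genes are among the 38. Ranked by the smaller of both absolute log2 differences, Rtp1 was 2nd, Sphkap 3rd, Fndc9 4th, Cldn9 5th and Avpr1a 6th; the 1st was Sec14l3 (2.05 and -2.18). Map2, the lowest of the 9 at rank 27, stood between Slc7a8 (0.41 and -0.40) and Slc39a12 (0.38 and -0.34). Genes left out of the 9 with differences of like size include Camkv (0.97 and -1.23) and Aplp1 (0.68 and -0.85). With replicates 1 to 4 only, 7 genes were called in this opposite way, and 18 without the libraries high in Pdgfra described below.

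**Figure D2:**
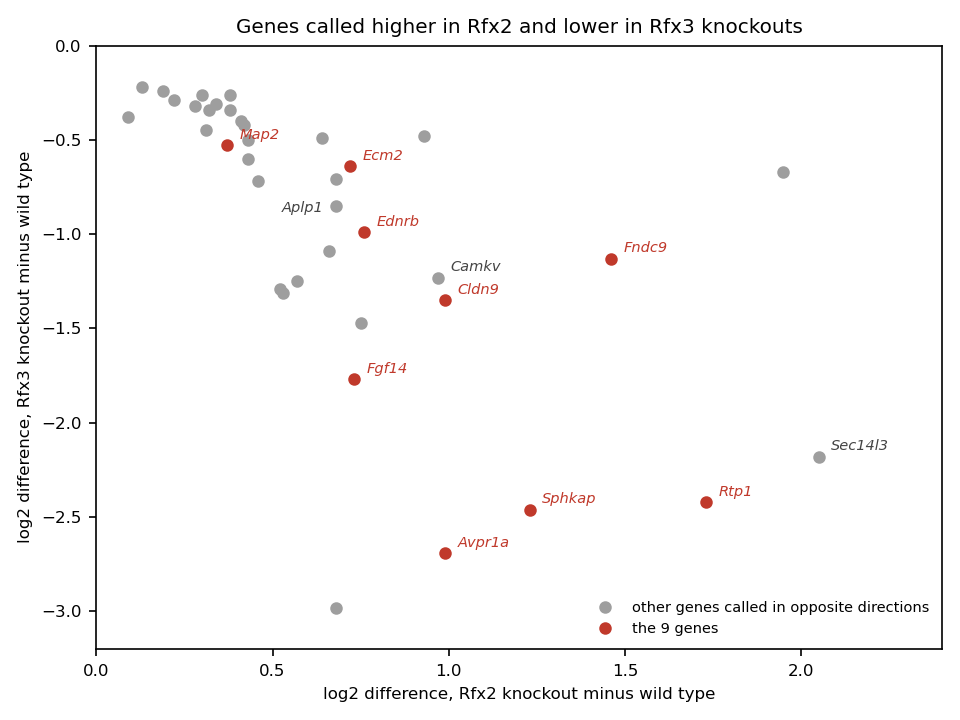
Log2 difference in the Rfx2 line (x axis) against that in the Rfx3 line (y axis) for the 38 genes called higher in the first and lower in the second. Red points are the 9 genes and grey points the other 29; Rtp1 (1.73 and -2.42) and Sec14l3 (2.05 and -2.18) lie farthest toward the lower right corner.

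The Rfx1 knockout is the comparison in which the 9 genes can be tested. None of the 9 passed edgeR's test there (adjusted p = 0.9998 for each) or that of DESeq2, and none had an unadjusted p below 0.05, against 2.03% of the 13830 genes tested. A single gene of the 13830 was called (0.00723%), so the background is close to nothing as well; Rfx1 itself, lower in all 4 knockout libraries, missed the threshold (log2 difference -1.40, SE 0.16, edgeR adjusted p = 0.0687). The median log2 difference of the 9 genes was 0.11, against 0.003 over all tested genes. In the Rfx2 line the same medians were 0.99 and 0.013, and in the Rfx3 line -1.35 and 0.024.

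Avpr1a had the largest Rfx1 difference. Its 4 knockout libraries held 11.6, 8.19, 7.93 and 18.4 CPM and the wild types 6.02, 10.1, 7.91 and 8.1, so the groups overlap and 1 library stands high. The log2 difference was 0.52 (95% interval -0.11 to 1.15). Rtp1 was the only one of the 9 with a difference below 0, at 3.2, 3.29, 1.11 and 1.59 CPM in the knockout and 2.58, 3.55, 4.43 and 2.06 in wild type (log2 difference -0.45, 95% interval -1.32 to 0.42). Sphkap, at 4.77, 3.59, 2.59 and 2.84 CPM against 4.57, 3.24, 3.3 and 1.92, differed by 0.09 (95% interval -0.58 to 0.76). The other 6 ran from 0.00 (Map2, 95% interval -0.20 to 0.21) to 0.21 (Fndc9, 95% interval -0.37 to 0.79). For Ednrb, knockout libraries held 233 to 326 CPM and wild types 210 to 339. The 95% intervals of Fgf14 (-0.18 to 0.39), Ecm2 (-0.18 to 0.43), Cldn9 (-0.26 to 0.61) and Ednrb (-0.31 to 0.45) also included 0. The difference between lines was not tested, since those lines chose the genes.

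**Figure D3:**
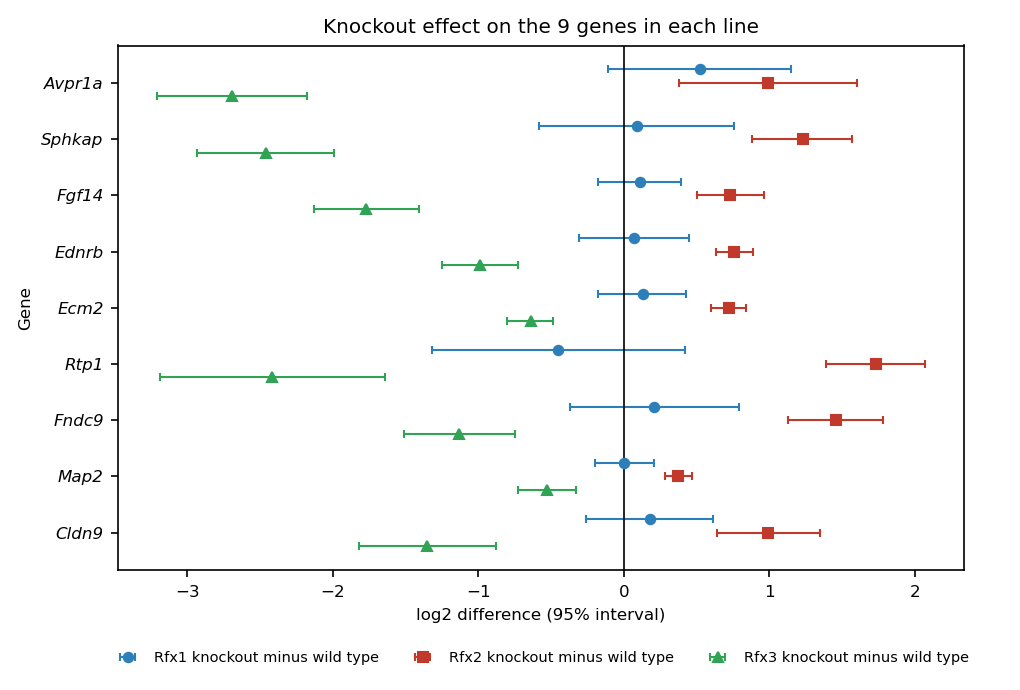
Log2 difference between knockout and wild type (x axis) for each gene (y axis) in the Rfx1 (blue circles), Rfx2 (red squares) and Rfx3 (green triangles) lines, with 95% intervals. The Rfx1 intervals all include 0, the Rfx2 values run from 0.37 to 1.73 and the Rfx3 values from -2.69 to -0.53; the Rfx2 and Rfx3 values were used to choose the genes.

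Wild-type levels differed between lines for some of the 9 genes. Wild-type libraries held 5.98 to 9.61 CPM of Fndc9 in the Rfx1 line but 4.44 to 5.21 in the Rfx3 line and 2.9 to 6.03 in the Rfx2 line. For Ecm2 they held 30.5 to 42.6 CPM in the Rfx1 line, below the 45.5 to 58.7 and 46.7 to 53.7 of the other two. Avpr1a (means of 8.05, 9.62 and 11.2 CPM in the Rfx1, Rfx2 and Rfx3 lines), Sphkap (3.26, 3.56 and 2.99) and Fgf14 (11.1, 9.71 and 10.9) overlapped among the lines' wild types. Ordering the 6 group means, the lowest, always the Rfx3 knockout, did not overlap the next group for 6 of the genes (Avpr1a, Sphkap, Fgf14, Rtp1, Map2 and Cldn9), which holds for the lowest group of 4.25% of the 13748 genes tested in all 3 lines. The highest did not overlap the next for 5 (Sphkap, Fgf14, Ecm2, Rtp1 and Map2), against 3.8% of those genes. The choice of the 9 genes favours both counts, and nothing is read from them. Most other neighbours in the order overlapped. No label gives a date or batch, so line and batch cannot be told apart in these levels.

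Relatives of the 9 genes were followed in 8 lists of 130 genes, of which 129 were in the table. In the Rfx2 line 22 of 100 tested relatives rose and 21 fell, with a median log2 difference of -0.01. In the Rfx3 line 14 of 102 rose and 17 fell, with a median of 0.07; without Rfx3 knockout library 3 the number that rose was 30. In the Rfx1 line 0 of 96 passed the test by edgeR or by DESeq2, and 1 had an unadjusted p below 0.05. The relatives' shares of 22% and 21% in the Rfx2 line and 13.7% and 16.7% in the Rfx3 line stand beside 13.9% and 18.4%, and 10.6% and 12.9%, over all tested genes, and nothing particular to the lists is read from them.

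In endothelin and vasopressin signalling (12 genes, 6 tested in each of the Rfx2 and Rfx3 lines), 2 rose and 1 fell in the Rfx2 line, and 1 rose and 2 fell in the Rfx3 line. Edn3, which encodes a ligand of Ednrb, rose in both, from 0.584 ± 0.188 to 1.42 ± 0.632 CPM (SD, n = 8 and 6) in the Rfx2 line (log2 difference 1.24, SE 0.27, edgeR adjusted p = 0.00304) and from 0.637 ± 0.334 to 1.87 ± 0.535 (n = 6 and 6) in the Rfx3 line (1.54, SE 0.37, edgeR adjusted p = 0.0119). Edn3 RNA was thus higher in both knockouts, while Ednrb was chosen for going up in the first and down in the second. Edn1, another endothelin gene, was called in neither line. Its log2 difference was -0.37 in the Rfx2 line (edgeR adjusted p = 0.248) and 0.36 in the Rfx3 line (edgeR adjusted p = 0.472). The Rfx3 call of Edn3 was lost with replicates 1 to 4 only (edgeR adjusted p = 0.08) and without the libraries high in Pdgfra (edgeR adjusted p = 0.106). Ednra, the A-type endothelin receptor, fell by 0.43 on the log2 scale in the Rfx3 line (SE 0.11, edgeR adjusted p = 0.0166) and was at 28.8 against 31 CPM in the Rfx2 line, not called. Ece2, an endothelin-converting enzyme, fell in both lines (-0.30 and -0.45). Lnpep, a peptidase that can degrade vasopressin and oxytocin, rose in the Rfx2 line (0.30). The oxytocin receptor gene Oxtr stayed at or below 0.509 CPM in every library and was not tested.

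Of 16 genes of Fgf14's relatives and sodium channels, 13 were tested in the Rfx2 line (3 rose, 4 fell) and 15 in the Rfx3 line (2 rose, 2 fell). Scn3b, an auxiliary channel subunit, fell in both lines (-0.76, SE 0.11, and -0.67, SE 0.13). Scn9a fell (-1.74) and Scn2a rose (0.33) in the Rfx2 line. The level of Scn9a was low there, at 0.155 ± 0.0455 against 0.519 ± 0.226 CPM (SD, n = 6 and 8). Only 4 of the 6 knockout libraries lay below every wild type for Scn9a. Of the homologous factors, Fgf13 rose in the Rfx2 line (0.26, SE 0.08, edgeR adjusted p = 0.0257), a call lost without knockout library 4 or 6 (edgeR adjusted p = 0.0629 and 0.0569). Fgf12 was at 15.2 against 13.7 CPM in the Rfx2 line and 23.7 against 18.3 in the Rfx3 line, not called in either.

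Of 21 genes for protein kinase A and its anchors, 20 were tested in each line; 4 rose and 4 fell in the Rfx2 line, and 1 rose and 3 fell in the Rfx3 line. Akap14, an anchor found in cilia, fell in both lines (-1.13, SE 0.16, and -1.27, SE 0.30). The catalytic subunit gene Prkacb (0.14) and the anchor gene Akap11 (0.12) rose in the Rfx2 line. Sphkap, another anchor, was higher in the Rfx2 line, where Akap14 fell.

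Of the 20 microtubule-associated genes set beside Map2, 4 rose and 4 fell in the Rfx2 line, and 5 rose and 3 fell in the Rfx3 line. Mapt, which encodes tau, rose in both (0.47, SE 0.09, edgeR adjusted p = 0.00117, and 0.94, SE 0.12, edgeR adjusted p = 0.000781), whereas Map2 went down in the second. Map1b was not called, at 221 against 234 CPM in the Rfx2 line and 203 against 256 in the Rfx3 line. Map6 fell (-0.44) and Dclk2 rose (0.52) in the Rfx2 line.

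Among 27 claudins and tight junction genes, 15 were tested in each line; 4 rose and 4 fell in the Rfx2 line, and 1 rose and 4 fell in the Rfx3 line. Ocln, which encodes occludin, fell in both (-0.78, SE 0.12, and -1.25, SE 0.25), as did the scaffold gene Tjp3 (-0.65 and -0.93), while Tjp1, which encodes ZO-1, rose in the Rfx2 line (0.20). Of 9 receptor transport and expression enhancing genes 7 were tested, of which 1 rose (Reep3, 0.28) and 1 fell in the Rfx2 line and 0 were called by edgeR in the Rfx3 line (2 by DESeq2, and 3 at an unadjusted p below 0.05). The fall, of Reep6 (-0.40, edgeR adjusted p = 0.043), was lost with the replicate block (-0.35, edgeR adjusted p = 0.106) and by DESeq2 (adjusted p = 0.0584), and in all under 16 of 22 alternatives, 9 of them the loss of a single library. Of 8 tested genes with fibronectin type III domains, 3 rose and 2 fell in the Rfx2 line, and 1 rose and 2 fell in the Rfx3 line: Fndc4 rose in both (0.32 and 0.54), Fndc3a rose in the Rfx2 line (0.18) and Fndc7 fell in the Rfx3 line (-1.39). Of 11 tested small leucine-rich matrix genes, 1 rose and 1 fell in the Rfx2 line and 3 rose and 1 fell in the Rfx3 line, where Fmod (0.77) and Podn (1.62) rose and Prelp fell (-0.48).

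Many of these calls rest on the full set of libraries. Of the 13 relatives named as called in the Rfx3 line, 11, all but Mapt and Fndc4, were not called with replicates 1 to 4 only (edgeR adjusted p = 0.0507 to 0.264). Without the libraries high in Pdgfra 8 were not called (Edn3, Ednra, Ece2, Ocln, Tjp3, Fmod, Prelp and Podn, edgeR adjusted p = 0.0672 to 0.201). Of the 20 named as called in the Rfx2 line, 4 were lost with replicates 1 to 4 only (Ece2, Akap11, Reep6 and Fgf13), 4 without the libraries high in Pdgfra (Tjp1, Reep6, Fndc4 and Fgf13), and 7 with all 6 groups in 1 fit (Lnpep, Akap11, Tjp1, Reep3, Reep6, Fndc3a and Fgf13).

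Over all 34 libraries the 9 genes varied together, with Pearson r between 0.419 and 0.93 over their 36 pairs (median 0.798), which the choice of the genes favours. Once each group's mean was subtracted, r ran from -0.308 to 0.666 with a median of 0.192, and 24 of the 36 pairs were above 0. The genes most like the mean of the 9 over the 34 libraries, among 12220 ranked, were Rnf182 (r = 0.876), Aplp1 (0.873), Slc6a17 (0.861), Rapgefl1 (0.856) and Rfx3 itself (0.854). After subtraction of the group means they were Tox (0.727), Fhod3 (0.637), Rp2 (0.629), Nedd4l (0.626) and Camk2a (0.615). These are descriptions over libraries that share a culture system and a scaling, and the values with no subtraction carry the group differences. Rnf182, Aplp1 and Rapgefl1 are also among the 38 genes called in opposite directions. Rfx3 is the gene targeted in the group where all 9 had their lowest mean. The choice of the 9 genes thus favours these r values.

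Avpr1a and Sphkap spread in opposite ways among libraries that differed in Pdgfra, a marker of oligodendrocyte precursors. Pdgfra was above 10 CPM in 3 of 6 knockout and 3 of 8 wild-type libraries of the Rfx2 line, in 4 of 6 and 1 of 6 of the Rfx3 line, and in 1 of 4 and 1 of 4 of the Rfx1 line. Rfx2 wild-type library 3 was only just above this limit, at 10.1 CPM, against 70.2 and 85.4 in wild-type libraries 1 and 2. It also sets the top of the Avpr1a range given below for wild types high in Pdgfra. Rfx1 wild-type library 3 was close to the limit as well, at 10.5 CPM. The 6 Rfx2 line libraries above 10 CPM are replicates 1 to 3 of both genotypes. Pdgfra and whatever else those replicates share therefore cannot be told apart. In the Rfx2 knockout, Avpr1a was at 9.56 to 14.5 CPM in the 3 libraries high in Pdgfra and at 22.1 to 31.2 in the other 3, against 5.32 to 10.1 and 7.59 to 14.3 in the matching wild types. Among the libraries low in Pdgfra, 3 knockouts and 5 wild types, the ranges therefore did not overlap, while over all libraries of the line they did. The choice of the genes favours such a separation, and nothing is read from it. Sphkap went the other way, at 9.5 to 10.3 CPM in the knockout libraries high in Pdgfra and 6.33 to 7.66 in the others, above the wild types of both kinds (3.78 to 4.13 and 2.53 to 5.05).

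After subtraction of group means over the 34 libraries, r with Pdgfra was -0.759 for Avpr1a and 0.408 for Sphkap, and between -0.39 (Ecm2) and 0.396 (Ednrb) for the others. Without the libraries above 10 CPM, a comparison chosen after seeing the data in the Rfx3 line, Avpr1a differed by 1.28 in the Rfx2 line and by -2.56 in the Rfx3 line on the log2 scale. Cldn9 was then not called in the Rfx3 line (-0.84, edgeR adjusted p = 0.0798), with 2 knockout libraries left. The part of these cells in the results was not tested beyond these values.

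**Figure D4:**
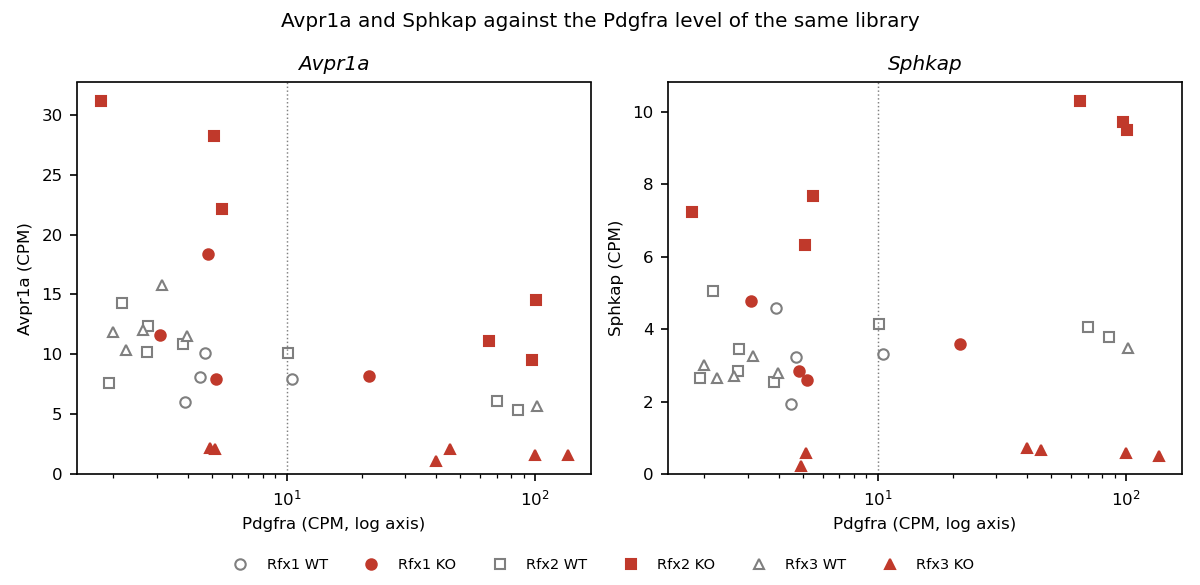
Avpr1a (left) and Sphkap (right) in CPM (y axis, linear from 0) against Pdgfra in CPM (x axis, log scale) in the same library. Circles, squares and triangles are the Rfx1, Rfx2 and Rfx3 lines, filled red for knockout and open grey for wild type, and the dotted line marks 10 CPM. Rfx2 knockout libraries right of the line hold less Avpr1a (9.56 to 14.5 CPM) and more Sphkap (9.5 to 10.3 CPM) than those left of it.

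Markers of other cell types moved with the knockouts to differing degrees, as counted by edgeR at an adjusted p below 0.05. Choroid plexus markers, which label the secretory epithelium next to the ependyma, were lower in the Rfx3 line for 4 of the 5 tested (of 7 listed), with a summed level of 32.9 to 83.5 CPM against 73.5 to 98 in wild type. In the Rfx2 line 1 of 5 was lower, with sums of 41.2 to 60.1 against 49.1 to 64.9 CPM. Without knockout library 5 or 6 or wild-type library 3 or 5, 2 choroid plexus markers were lower in the Rfx3 line. Ttr, the defining choroid plexus gene, was at 0.805 ± 1.74 CPM in the Rfx3 knockout (SD, n = 6; highest library 4.35) and 0.0781 ± 0.162 in its wild types (n = 6; highest 0.407). In the Rfx2 line it was at 0.6 ± 1.45 CPM in the knockout (n = 6; highest library 3.57) and 0.0332 ± 0.0366 in wild type (n = 8; highest 0.0834). Multiciliated markers summed to 911 to 1210 CPM against 1261 to 2674 in the Rfx2 line and to 886 to 2531 against 2663 to 3175 in the Rfx3 line. They were thus lower in both lines, while the 9 genes were higher in the first and lower in the second.

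Astrocyte markers rose for 4 and fell for 1 of 11 in the Rfx2 line and rose for 3 of 10 in the Rfx3 line, with sums of 6661 to 11856 against 5202 to 9206 CPM and of 2902 to 5819 against 2566 to 5312. Only 1 astrocyte marker was called higher in the Rfx2 line without knockout library 1 or 3 or wild-type library 3 or 4, 2 without knockout library 2 or wild-type library 6 or 8, and 0 with replicates 1 to 4 only or without the libraries high in Pdgfra. In the Rfx3 line 1 was called higher with a term for Y-linked counts or without the libraries high in Pdgfra. With replicates 1 to 4 only it was 0, and leaving out 1 library gave 2 to 4. Oligodendrocyte lineage markers rose for 1 and fell for 1 of 13 in the Rfx2 line and rose for 2 of 13 in the Rfx3 line, with overlapping sums of 319 to 770 against 416 to 693 CPM and 631 to 930 against 564 to 825. Its late marker Opalin was at 0 in both Rfx1 groups. Neuronal markers summed to 18.6 to 38.5 against 23.5 to 37.5 CPM in the Rfx2 line. There 0 of 11 were called by edgeR or DESeq2 (3 at an unadjusted p below 0.05). In the Rfx3 line they summed to 27.9 to 45.8 against 26.7 to 47.6 CPM, with 2 higher and 1 lower of 14. These sums cover the listed genes only. Microglia markers summed to 567 to 1744 against 562 to 1638 CPM in the Rfx2 line and were called by edgeR and DESeq2 in neither line, with 0 at an unadjusted p below 0.05. Of the 8 tested vascular and fibroblast markers 1 rose in each line, of 8 radial glia markers 1 rose and 1 fell in the Rfx2 line and 2 rose in the Rfx3 line, and of 6 markers of dividing cells 1 rose in the Rfx3 line. The part of these cell types in the results was not tested.

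Rfx3 knockout libraries also differed among themselves in Mcidas, a switch gene of the multiciliated fate. It was at 93.5, 90.5 and 66.6 CPM in libraries 1 to 3 and at 19.8, 22.3 and 13.2 in libraries 4 to 6, against 68 to 111 in wild type. In libraries 1 to 6 in turn, Avpr1a was at 1.07, 2.15, 2.08, 1.57, 1.59 and 2.12 CPM, Fndc9 at 3.35, 2.41, 2.74, 1.84, 1.73 and 1.61, and Cldn9 at 0.706, 0.732, 1.21, 0.612, 0.653 and 0.627. Libraries 1 to 3 and libraries 4 to 6 did not overlap for Fndc9 and Cldn9. They did overlap for Avpr1a, Sphkap, Fgf14, Ednrb, Ecm2, Rtp1 and Map2. Fgf14, for example, was at 3.58, 3.62, 2.31, 3.11, 3.97 and 2.63 CPM in libraries 1 to 6 in turn. All of these values lay below the Rfx3 wild types, and a relation to Mcidas was not tested.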

How the data were processed

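The deposited table holds the authors' raw counts, 34 libraries by Ensembl gene. The submitters' processing notes name CASAVA 1.8.2, STAR 2.4, featureCounts 1.4.6 and the GRCm38 genome; whether counting used strand, and which annotation, is not stated there. Of 21647 identifiers, 21583 matched GENCODE M21, which gave symbols and positions. Replicate pairs differed beyond counting noise in all 85 cases (chi-squared per degree of freedom 4.11 to 212).

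Knockout and wild type were compared within each line by edgeR 4.0.16 (R 4.3.3): filterByExpr (minimum count 10, total 15), TMM scaling, the quasi-likelihood test, and Benjamini-Hochberg adjustment over all tested genes at 0.05. The fit was tested on simulated data. DESeq2 1.42.0 was an alternative. CPM values use TMM factors over all libraries.

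The 9 genes and all gene lists were chosen with earlier results of these data known. Of each family list, up to 3 called genes with the smallest p in the Rfx2 or Rfx3 line were named. Cldn6, Ednra, Oxtr, Fgf12, Fgf13, Mapt and Map1b were named as well. Edn1, Sec14l3, Slc7a8, Slc39a12 and Camkv were named after their values were seen. Genes of like pattern were the 5 with the highest r to the mean of the 9 among genes averaging log2 CPM 1 or more. The sample titles give replicate numbers but do not say that these pair libraries. In the Rfx2 line all 6 same-numbered pairs deviated together (r from 0.14 to 0.578). Knockout libraries 3, 5 and 6 were nevertheless most like wild-type libraries 2, 7 and 5. The main fits used no pairing, and a replicate block was an alternative.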

Additional observations from a re-analysis of the deposited data

Results flagged for a closer look

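Among 54 combinations of gene and group, 3 held a library whose gap to the nearest other library was large for the range of its group by Dixon's test at 95%; chance flags about 1 in 20 groups. Fgf14 was at 15.3 CPM in Rfx3 wild-type library 6, against 9.54 to 10.6 in the other 5. Map2 was at 299 CPM in Rfx3 knockout library 3, against 403 to 447 in the other 5. Cldn9 was at 1.21 CPM in the same library, against 0.612 to 0.732 in the others. Without this library 5549 genes were called in the Rfx3 line, against 3374 with it, and its quality was not tested.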

How the results depend on the processing

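None of the 9 genes changed direction in the Rfx2 line under 22 alternatives or in the Rfx3 line under 20. Of 198 and 180 values, 1 and 4 lost their call, as given above. These alternatives reuse the libraries that chose the genes. The choice thus favours kept directions and calls, and nothing is read from them. In the Rfx1 line no gene of the 9 was called under 15 alternatives, and small differences changed sign: with a term for Y-linked counts Ecm2 was at -0.17, Rtp1 at 0.01, Map2 at -0.07 and Cldn9 at -0.18, and with 1 library left out Sphkap ran from -0.11 to 0.31, Fgf14 from 0.00 to 0.19, Ednrb from -0.02 to 0.22, Fndc9 from -0.01 to 0.37 and Map2 from -0.04 to 0.07. Scaling by library size alone moved none of 54 group means by over 1 SD.

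Over all genes, 1 was called in the Rfx1 line, but 9 by DESeq2, 2 with no filter, 6 with all 6 groups in 1 fit, 6 without the libraries high in Pdgfra, and 0 with the replicate block or the Y-linked term; leaving out 1 library gave 0 to 9. In the Rfx2 line 4626 were called, and 2748 with replicates 1 to 4 only. In the Rfx3 line 3374 were called, but 2205 with the replicate block, 5367 with all groups in 1 fit, 2225 with the Y-linked term, 194 with replicates 1 to 4 only and 699 without the libraries high in Pdgfra; leaving out 1 library gave 2139 (without wild-type library 3) to 5549 (without knockout library 3). Relatives that fell in the Rfx2 line were 9 with replicates 1 to 4 only. Relatives that rose in the Rfx3 line were 24 with all groups in 1 fit, 8 with the Y-linked term, 4 with replicates 1 to 4 only, 3 without the libraries high in Pdgfra and 10 to 30 with 1 library left out; those that fell were 11 with the replicate block, 0 with replicates 1 to 4 only and 6 without the libraries high in Pdgfra. Multiciliated markers called lower in the Rfx3 line ran from 1 (replicates 1 to 4 only) to 9 (all groups in 1 fit), and choroid plexus markers from 0 to 4. The cause was not tested; fits on replicates 1 to 4 or without libraries high in Pdgfra hold fewer samples.

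The replicate block changed the call of Reep6 among the genes named in the Rfx2 line. In the Rfx1 and Rfx3 lines same-numbered libraries did not all deviate together (r from -0.0653 to 0.332 and from -0.331 to 0.198). The block counts there are those given above. Depth limits Rtp1 and Sphkap most in the Rfx3 knockout.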
